A study of Rattus norvegicus with 2 samples.

Results

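Cluster 5 was the smaller of the 2 clusters that the authors named Endothelial in Percoll-enriched cardiac cells of neonatal rats. It was taken here as every cell to which the deposited cell tables give the cluster number 5, and it held 793 of the 24210 cells with a cluster. Ventricular tissue was cut from the apex of hearts of Sprague-Dawley rats aged 1 to 3 days, males and females pooled. It was minced and digested with trypsin. The cells were enriched on a Percoll gradient that the study used to obtain intrinsic cardiac adrenergic (ICA) cells, so the labels call both libraries ICA cells although they hold many cell types. After the gradient the cells were plated and cultured. In culture they were exposed for 2 h to LPS at 1 µg/mL, a bacterial endotoxin, or to saline (control). They were then detached with trypsin, and 1 library of the 10X Genomics 3′ kind was made per condition. No group carried a genetic change, and both groups share the digestion, the gradient and the culture. The endothelial cells thus met LPS in culture, after their release from the tissue, and the levels below are those of cultured cells.

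With 1 library per condition there is no replicate check, no test was made, and an effect of LPS cannot be told apart from any other difference between the libraries. A level is the unique molecular identifiers (UMIs) of a gene summed over the cells of a cluster, per 1000000 UMIs of that cluster (CPM). Intervals in parentheses are 95% intervals and cover counting error only. Cluster 5 held 350 control cells with 4249533 UMIs and 443 LPS cells with 4550936 UMIs. The median was 10171.5 UMIs per control cell and 8998 per LPS cell. Among cells with a cluster its share was 3.04% (2.73 to 3.37) in control and 3.49% (3.18 to 3.83) in LPS, and among the endothelial cells of clusters 4 and 5 it was 32.6% (29.8 to 35.5) and 35.0% (32.4 to 37.7). Of the cell barcodes, 194 occurred in both libraries, and 1 of these lay in cluster 5 in both.

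Endothelial cells line all vessels, the lymphatics and, as endocardium, the chambers of the heart, and each of these beds carries its own set of genes. P-selectin, encoded by *Selp*, is stored in granules and brought to the surface to catch rolling leukocytes, mostly in venules. PLVAP forms the diaphragms of fenestrae and caveolae and is known from veins, fenestrated capillaries and endocardium, whereas connexin 37, encoded by *Gja4*, is a gap junction protein known from arterial endothelium. In endothelium, LPS acts through a receptor complex that leads to NF-κB, and the genes induced include adhesion molecules, chemokines and regulators of clotting.

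The markers that gave the cluster its name were found in its cells. *Plvap* (ENSRNOG00000017676) stood at 609 CPM (586 to 633) in control and 477 CPM (457 to 497) in LPS cells of cluster 5, against 82.2 and 54.9 CPM in cluster 4. *Bace2* (ENSRNOG00000001953), which encodes a protease related to β-secretase, stood at 136 and 71.6 CPM against 13.8 and 9.55 CPM in cluster 4. *Nostrin* (ENSRNOG00000006611), an adaptor that binds endothelial nitric oxide synthase, stood at 31.1 and 62.6 CPM against 12.04 and 18.6 CPM. These 3 genes were higher in cluster 5 than in cluster 4 in each library. The other named markers, *Selp* and *Gja4*, differed most between the libraries.

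*Selp* (ENSRNOG00000002794) stood at 71.5 CPM (63.7 to 80.0) in control and 656 CPM (633 to 680) in LPS cells, 9.17-fold higher (8.15 to 10.4). In cluster 4 it stood at 3.87 and 43.6 CPM, 11.3-fold higher (8.22 to 15.8), so the clusters differed in level, while the log2 difference of their responses was -0.28 with an interval that includes 0 (-0.77 to 0.20). *Gja4* (ENSRNOG00000014357) differed in the other direction. It stood at 523 CPM (502 to 546) in control and 81.1 CPM (73.0 to 89.8) in LPS cells of cluster 5, 6.45-fold lower (5.78 to 7.23). In cluster 4 it stood at 126 and 107 CPM, 1.18-fold lower. *Gja4* thus lay 4.16-fold above cluster 4 in the control library and at 0.758 of its level in the LPS library, and it marked cluster 5 in control cells but not in LPS cells.

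To compare shares of cells at 1 depth, 3000 UMIs were drawn from every cell, and 7 LPS cells of cluster 5 that held fewer were not used. A *Plvap* UMI was then found in 69.1% (64.0 to 73.9) of control and 61.0% (56.3 to 65.6) of LPS cells, and in 2.48% and 1.41% in cluster 0, fibroblasts that serve here as background. The median depth of cluster 0 was 12968 UMIs in control and 9821.5 in LPS cells. *Selp* was found in 19.4% (15.4 to 24.0) and 74.5% (70.2 to 78.6) of the cells of cluster 5, and in 0.167% and 1.57% of cluster 0. *Gja4* was found in 62.9% (57.6 to 67.9) and 16.1% (12.7 to 19.8), against 2.27% and 0.883%. The higher *Selp* and the lower *Gja4* sum were therefore seen as more and as fewer cells with a UMI. Unthinned, the shares of cluster 5 were 90.9% and 81.5% for *Plvap*, 44.9% and 88.7% for *Selp* and 83.4% and 35.7% for *Gja4*. The same shares were 71.1% and 64.8% for *Lbp*, 27.7% and 12.9% for *Cldn5* and 26.6% and 57.6% for *Rgs4*, all of which are described below. For *Vcam1* they were 6.86% and 50.1%, for *Sele* 1.43% and 23.0% and for *Csf3* 3.71% and 64.1%.

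**Figure D1:**
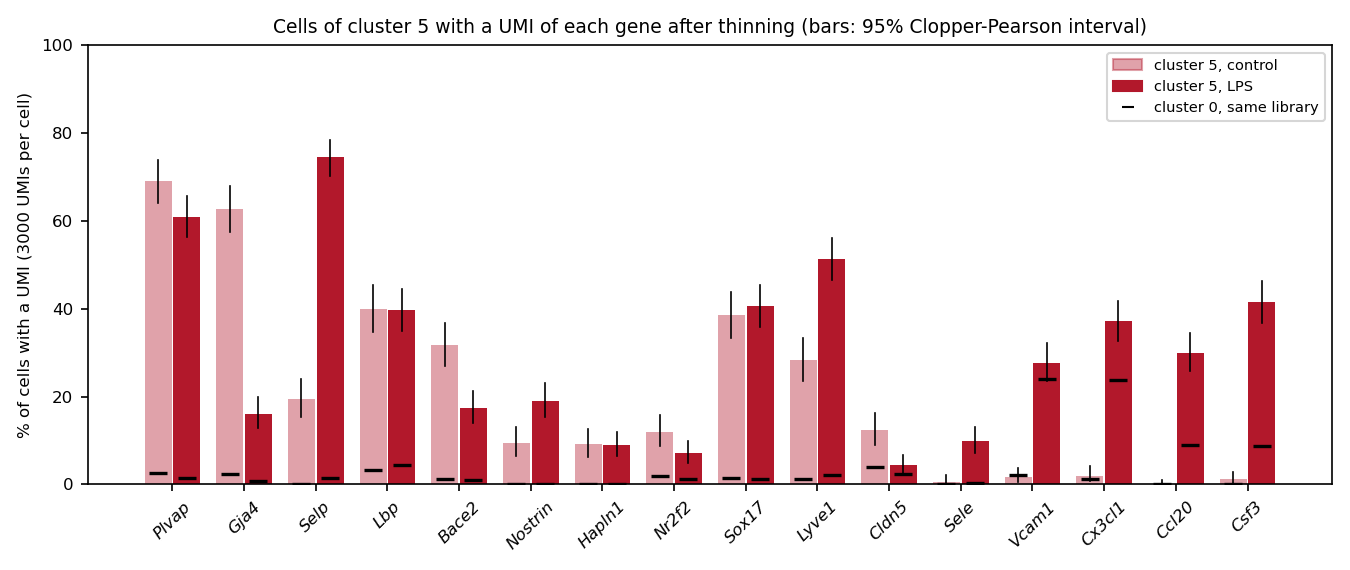
Percent of the cells of cluster 5 with at least 1 UMI of 16 genes after thinning to 3000 UMIs per cell (y axis), in 350 control cells (pale bars) and 436 LPS cells (dark bars), with 95% Clopper-Pearson intervals and the share in cluster 0 of the same library as a black dash. *Plvap* lies at 69.1% and 61.0%, *Gja4* at 62.9% and 16.1% and *Selp* at 19.4% and 74.5%, and for *Vcam1* the dash of cluster 0 in the LPS library (24.1%) lies close to the bar (27.8%).

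Lists of genes that mark vessel types were then compared between clusters 5 and 4. Because the clusters were made from these same counts, the comparison is a description. Of the 10069 genes with at least 50 UMIs in the 2 clusters, 258 (2.56%) were at least 2-fold higher in cluster 5 in both libraries and 437 (4.34%) at least 2-fold lower, 6.90% in all. The median log2 ratio over all these genes was -0.18 in control and -0.16 in LPS cells, and scaling by trimmed means (TMM), which brought it to -0.02 and -0.01, gave 327 higher and 340 lower genes. The list ratios below are to be read against these medians.

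Among 7 measured venous genes, 2 were past 2-fold higher and 2 past 2-fold lower in cluster 5. The higher ones were *Selp* and *Nr2f2* (ENSRNOG00000010308), the transcription factor COUP-TFII that maintains venous identity, at 43.5 CPM (37.5 to 50.3) in control and 31.6 CPM (26.7 to 37.3) in LPS cells against 20.1 and 9.55 CPM in cluster 4. The lower ones were the apelin receptor *Aplnr*, at 37.7 and 8.35 CPM against 176 and 51.6 CPM, and the lymphatic and venous receptor *Flt4*, at 10.6 and 6.81 CPM. *Ephb4*, a receptor of venous endothelium, lay at 0.977 and 0.944 of its level in cluster 4. *Vwf*, which encodes von Willebrand factor and is stored with P-selectin, had 32 and 19 UMIs in all. The venous list was thus split, with *Selp* and *Nr2f2* on one side and *Aplnr* and *Flt4* on the other. *Selp* is also a marker that gave the cluster its name, so its place in this count is not independent of that choice.

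Of the 16 arterial genes, 13 had enough UMIs, and 0 were past 2-fold higher in both libraries while 5 were lower. The Notch ligand *Dll4* had 9 control and 24 LPS UMIs in cluster 5, 0.0815 and 0.211 of its level in cluster 4. The Notch effector *Hey1* had 0 UMIs in either library, which allows up to 0.706 and 0.659 CPM (3 UMIs). *Gja5*, the arterial connexin 40, had 3 and 5 UMIs, and *Bmx* 1 and 1. *Gja4*, given above, exceeded cluster 4 in the control library alone. *Sox17* (a transcription factor of arterial and endocardial endothelium) stood at 180 and 201 CPM, 1.10 and 1.38 times cluster 4, and *Notch1* at 77.7 and 53.6 CPM, 1.01 and 1.09 times cluster 4.

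Of 7 measured endocardial genes, 4 were past 2-fold higher in cluster 5 and 0 lower, with a median log2 ratio of 1.37 in control and 1.61 in LPS cells. *Plvap* is one of them, but it is also a marker that gave the cluster its name, so its place in this count is not independent of that choice. *Hapln1*, which links hyaluronan to proteoglycans in the cardiac jelly, stood at 36.5 CPM (31.0 to 42.7) and 29.2 CPM (24.5 to 34.6) against 2.16 and 1.54 CPM in cluster 4. The adhesion receptor *Adgrg6* stood at 7.29 and 5.71 CPM, 8.12 and 7.94 times cluster 4, and the cadherin *Cdh11* at 35.8 and 32.7 CPM, 2.58 and 3.06 times. *Gata4*, a cardiac transcription factor, lay at 1.66 and 2.43 times cluster 4. Neither stood apart from the fibroblasts of cluster 0 in control cells, with a UMI in 8.86% of thinned cells against 9.03% in cluster 0 for *Cdh11* and in 8.57% against 12.9% for *Gata4*. However, the defining endocardial markers were scarce: *Npr3*, the natriuretic peptide clearance receptor, had 5 and 3 UMIs, *Cytl1* had 0, *Tmem108* had 3 and 2, and *Nfatc1* had 29 and 23 UMIs, at 0.873 and 1.00 of its level in cluster 4.

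Capillary and tip-cell genes were lower in cluster 5. Of 8 measured capillary genes, 7 were past 2-fold lower in both libraries. *Fabp4*, a fatty acid carrier of capillary endothelium, stood at 120 CPM (109 to 130) and 52.3 CPM (45.9 to 59.4), 15.8-fold and 24.6-fold below cluster 4. *Gpihbp1*, which carries lipoprotein lipase across the capillary wall, had 33 and 10 UMIs, 24.7-fold and 52.4-fold below cluster 4. Of 8 tip-cell genes, which mark sprouting endothelium, 7 were past 2-fold lower, among them *Apln* (22.1-fold and 29.2-fold) and *Pgf* (14.3-fold and 21.6-fold).

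Lymphatic genes were mixed, with 2 of 6 measured genes past 2-fold higher (*Prox1* and *Reln*) and 2 lower (*Flt4* and *Ccl21*). *Prox1*, the master factor of lymphatic endothelium, had only 16 and 12 UMIs, and *Mmrn1* and *Ccl21* had 0. The hyaluronan receptor *Lyve1*, which is also known from endocardium and other young endothelium, was abundant, at 120 CPM (110 to 131) in control and 408 CPM (389 to 427) in LPS cells, against 169 and 366 CPM in cluster 4. None of the venous, arterial, endocardial, capillary, tip-cell and lymphatic lists had all of its measured members higher in cluster 5.

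**Figure D2:**
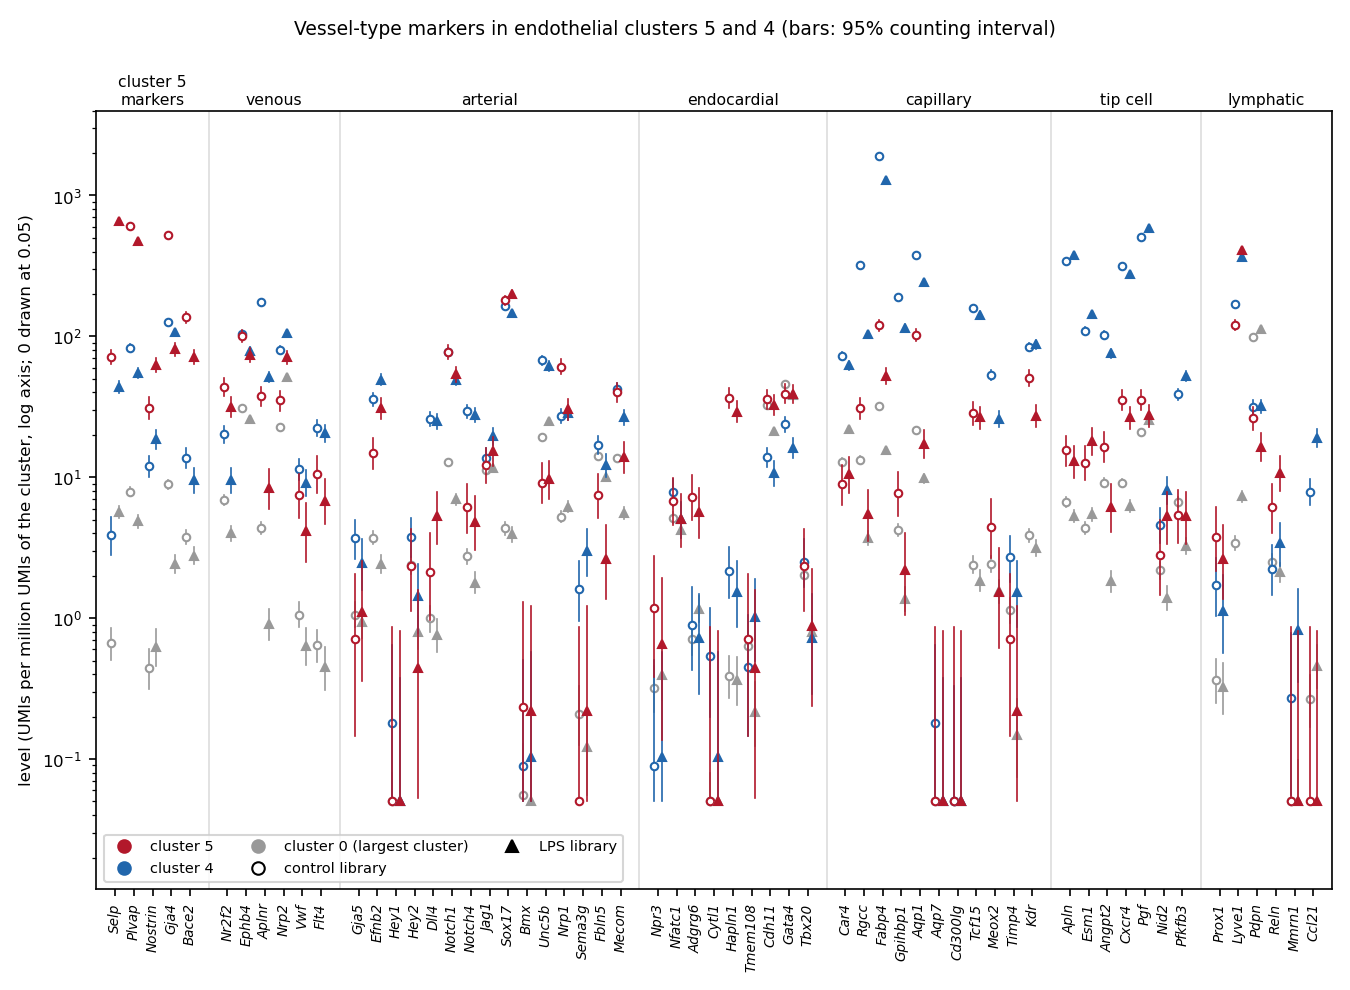
Level of each vessel-type marker (y axis, CPM on a log axis, 0 drawn at 0.05) in cluster 5 (red), cluster 4 (blue) and cluster 0 (grey), with open circles for the control library, filled triangles for the LPS library and bars for the 95% counting interval; a gene of more than 1 list is drawn once. Red lies above blue for *Selp*, *Plvap*, *Bace2* and *Hapln1*, and below blue for most genes of the capillary and tip-cell lists, as for *Fabp4* (120 and 52.3 CPM in cluster 5).

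The genes furthest above cluster 4 in both libraries, by the smaller of the 2 ratios, included *Lbp*, *Slpi*, *C3* and *Susd4*, which are described first. *Lbp* (ENSRNOG00000014532), which encodes the plasma protein that hands LPS to its receptor, stood at 202 CPM (189 to 216) in control and 224 CPM (210 to 238) in LPS cells against 10.97 and 15.7 CPM in cluster 4. A *Lbp* UMI was found in 40.0% and 39.7% of thinned cells of cluster 5, and in 3.29% and 4.399% of cluster 0. *Slpi*, an inhibitor of leukocyte proteases, stood at 934 and 1123 CPM against 86.6 and 145 CPM. Complement component *C3* stood at 17.6 and 41.8 CPM, 10.3 and 8.47 times cluster 4. *Susd4*, an inhibitor of complement, stood at 53.9 and 33.2 CPM, 19.98 and 10.8 times cluster 4. The control ratios of *Susd4*, *Lbp* and *Selp* to cluster 4 were lower with the new clusters described below, and their values are given with the processing.

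The heparin-binding growth factor *Mdk* stood at 293 and 214 CPM, 7.62 and 8.05 times cluster 4, and the mitochondrial sulfurtransferase *Tst* at 438 and 211 CPM, 13.0 and 9.74 times. *Prr15*, *Plek* and *Art4* completed the list with *Hapln1*, *Selp* and *Bace2*. The genes furthest below cluster 4 were *Gpihbp1*, *Apln*, *Fabp4*, *Prdm1*, *Pgf*, *Inhbb*, *Meox2*, *Cldn5*, *Apod*, *Rgcc*, *Prss23* and *Gpr4*. *Cldn5*, the main claudin of endothelial tight junctions, stood at 55.5 CPM (48.7 to 63.1) and 21.1 CPM (17.1 to 25.8), 11.3-fold and 21.0-fold below cluster 4, and was found in 12.3% and 4.36% of thinned cells against 76.1% and 64.3% in cluster 4.

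Genes common to endothelium were present, with a median log2 ratio to cluster 4 of -0.18 in control and -0.48 in LPS cells, beside -0.18 and -0.16 over all genes. The summed level of 15 such genes was 3212 CPM in control and 2381 CPM in LPS cells of cluster 5, against 4172 and 3515 CPM in cluster 4 and 365 and 317 CPM in cluster 0. Of the 14 with enough UMIs, 0 were past 2-fold higher in cluster 5 in both libraries and 1, *Cldn5*, was lower, which gave 55.5 and 21.1 CPM of the sum in cluster 5 and 627 and 444 CPM in cluster 4. VE-cadherin, *Cdh5*, stood at 228 and 294 CPM, 0.496 and 0.645 of cluster 4, and the angiopoietin receptor *Tek* at 191 and 117 CPM, 2.19 and 1.98 times cluster 4. Among 19 endothelial transcription factors, 5 were past 2-fold higher in cluster 5 (*Lyl1*, *Nr2f2*, *Foxc1*, *Foxc2* and *Prox1*) and *Sox18* was lower. *Foxc2*, which acts in venous and lymphatic valves, stood at 12.2 and 19.3 CPM, 5.04 and 4.59 times cluster 4.

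Markers of other cell types were also counted in cluster 5. The 9 fibroblast genes, led by *Col1a1*, summed to 3168 CPM in control and 2244 CPM in LPS cells, 17.9% and 15.3% of their level in cluster 9, where they were highest. They summed to 11999 and 10930 CPM in the fibroblasts of cluster 0 and to 3367 and 2408 CPM in cluster 4. The 9 mural genes, led by *Acta2*, stood at 10.0% and 7.62% of their level in cluster 2, and the 8 measured cardiomyocyte genes, led by *Tnnt2*, at 1.81% and 1.64% of cluster 3. The 10 macrophage genes stood at 2.15% and 1.65% of cluster 6, and their most abundant member in cluster 5, *Mrc1*, had 112 and 44 UMIs. The mannose receptor *Mrc1* and the scavenger receptor *Msr1* (24 and 27 UMIs) were the 2 that exceeded cluster 4 past 2-fold in both libraries, while *Cd163* had 1 and 0 UMIs and *C1qc* 1 and 0. The platelet genes *Ppbp*, *Gp9*, *Gp1bb* and *Gp5* were at 0 in cluster 5, and *Pf4* had 46 and 61 UMIs. The neutrophil gene *S100a9* had 21 and 59 UMIs. The part of other cells' RNA in the single-gene results was not tested, except where a level is set beside that of another cluster.

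In cluster 5, 7824 genes had at least 50 UMIs. Of these, 328 (4.19%) were at least 2-fold higher in the LPS library and 345 (4.41%) at least 2-fold lower, 8.60% in all, and the median log2 ratio over all of them was -0.06. In cluster 4, 250 of 9492 genes (2.63%) were higher and 382 (4.02%) lower, 6.66% in all. Before the values, the promoters of genes from the lists of adhesion molecules, chemokines and NF-κB regulators are shown, since chemokines made up most of the 12 genes with the highest ratios. The 4 shown were chosen after their values were seen, among members with large ratios that were found in the RefSeq promoter table and hold a match to the κB motif. *Cxcl1* and *Cxcl2*, whose ratios were larger than that of *Cxcl6*, hold matches too and are not shown.

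The sequences are the 250 bases before the annotated start on the coding strand, from RefSeq on GRCr8, and capitals mark the κB match. *Ccl20* lies on the plus strand at chr9:91836909-91837158 and its match spans bases -89 to -80 from the start. *Cxcl6* lies on the minus strand at chr14:17596418-17596667 with 2 overlapping matches from -88 to -78, *Cxcl10* on the plus strand at chr14:15988816-15989065 with a match from -187 to -178, and *Vcam1* on the minus strand at chr2:206742784-206743033 with a match from -93 to -84. Both strands were searched, from 250 bases before to 50 after the start.
Ccl20: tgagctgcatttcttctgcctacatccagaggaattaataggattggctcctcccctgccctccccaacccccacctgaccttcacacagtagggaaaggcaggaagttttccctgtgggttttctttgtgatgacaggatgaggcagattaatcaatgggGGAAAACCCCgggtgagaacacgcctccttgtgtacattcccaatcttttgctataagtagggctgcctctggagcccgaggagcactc
Cxcl6: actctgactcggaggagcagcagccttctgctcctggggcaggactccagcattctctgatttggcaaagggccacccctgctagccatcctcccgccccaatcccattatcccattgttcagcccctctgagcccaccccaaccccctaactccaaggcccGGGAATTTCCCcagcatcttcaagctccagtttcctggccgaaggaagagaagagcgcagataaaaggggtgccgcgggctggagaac
Cxcl10: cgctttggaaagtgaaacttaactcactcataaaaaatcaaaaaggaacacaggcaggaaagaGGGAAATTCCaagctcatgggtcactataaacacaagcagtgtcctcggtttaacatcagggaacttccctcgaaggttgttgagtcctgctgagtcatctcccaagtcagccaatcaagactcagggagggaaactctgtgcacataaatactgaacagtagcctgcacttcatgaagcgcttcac
Vcam1: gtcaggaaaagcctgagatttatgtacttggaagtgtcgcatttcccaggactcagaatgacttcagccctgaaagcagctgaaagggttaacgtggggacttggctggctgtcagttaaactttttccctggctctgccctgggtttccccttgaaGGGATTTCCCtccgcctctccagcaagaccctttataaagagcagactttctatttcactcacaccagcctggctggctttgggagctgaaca

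The κB motif was matched in 1400 of the 33469 promoters of the table (4.18%). Of the members with enough UMIs to be measured that the table holds, it was matched in 1 of 6 of the adhesion list, 6 of 11 of the chemokine list and 7 of 13 of the NF-κB list. No match was found in the promoter windows of *Cx3cl1*, *Sele*, *Icam1* or *Ccl7*, and that of *Selp* was not used here. A match is a run of letters and not a measured binding site.

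The leukocyte adhesion genes are described first. Of 10 measured adhesion genes, 4 were past 2-fold higher in LPS cells of cluster 5 (*Selp*, *Sele*, *Vcam1* and *Icam1*), 1 was lower (*Jam2*), and the median log2 ratio was -0.02. *Sele* (ENSRNOG00000002723), the inducible E-selectin that slows leukocytes together with P-selectin, had 7 control UMIs and 188 LPS UMIs, at 1.65 CPM (0.662 to 3.39) and 41.3 CPM (35.6 to 47.7), a ratio of 25.1 (11.9 to 63.2). In cluster 4 its ratio was 6.80 (4.87 to 9.72). *Icam1* (ENSRNOG00000020679), a ligand of leukocyte integrins, stood at 22.6 and 189 CPM, a ratio of 8.38 (6.78 to 10.5), against 6.87 in cluster 4.

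*Vcam1* (ENSRNOG00000014333), another integrin ligand, stood at 6.82 CPM (4.57 to 9.80) and 114 CPM (105 to 125), a ratio of 16.7 (11.5 to 25.3), against 12.3 in cluster 4. Its level in LPS cells was not particular to endothelium: cluster 0 stood at 102 CPM, and 24.1% of its thinned cells had a UMI against 27.8% in cluster 5. *Jam2* (ENSRNOG00000042848), a junctional adhesion molecule, stood at 74.4 CPM (66.4 to 83.0) in control and 7.91 CPM (5.54 to 10.95) in LPS cells, 9.40-fold lower (6.65 to 13.7), and was 2.77-fold lower in cluster 4. *F11r*, *Mcam* and *Cd99* had ratios between 0.954 and 0.998. A *Sele* UMI was found in 0.571% of thinned control and 9.86% of thinned LPS cells, and in 0.0455% and 0.271% of cluster 0.

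Chemokines, which guide leukocytes out of the vessel, were higher in LPS cells almost throughout. Of 15 measured genes, 13 were past 2-fold higher and 0 lower in cluster 5, with a median log2 ratio of 4.69, and the counts in cluster 4 were the same, 13 and 0, with a median of 3.76. Without *Ccl3*, *Ccl4*, *Cxcl1*, *Cxcl2* and *Cxcl3*, which stood far higher in the macrophages of cluster 6 and were left out after seeing the data, 8 of 10 were higher in either cluster, with medians of 4.09 and 3.12. *Ccl20* (ENSRNOG00000015992), the ligand of CCR6, had 2 control and 1058 LPS UMIs, or 0.471 CPM (0.0570 to 1.70) and 232 CPM (219 to 247), a ratio of 494 (136 to 4084). In the LPS library this was 203% (186 to 222) of the level in cluster 2, the highest cluster outside endothelium, the 10 cells with the most UMIs held 30.0% of the sum, and cluster 4 stood at 98.9 CPM. *Cx3cl1* (ENSRNOG00000016326), the membrane-bound fractalkine, stood at 5.88 and 182 CPM, a ratio of 31.0 (20.9 to 48.2), against 17.7 in cluster 4.

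*Cxcl6* (ENSRNOG00000002843), which attracts neutrophils, stood at 32.9 CPM (27.7 to 38.9) and 1009 CPM (980 to 1039), a ratio of 30.6 (25.9 to 36.5), against 13.6 in cluster 4. Its LPS level was 57.4% of that in the fibroblasts of cluster 0, and without the fibroblast-rich sub-cluster described below its log2 ratio was 5.84 in place of 4.93. *Ccl2* (ENSRNOG00000007159) and *Ccl7*, which attract monocytes, stood at 354 and 6401 CPM and at 117 and 1891 CPM. *Ccl2* was 18.1-fold higher (17.2 to 19.1) in cluster 5 and 7.66-fold higher in cluster 4. For these genes the level of the LPS cells was below that of another cluster, 43.4% of the highest for *Ccl2* and 17.5% for *Ccl7*. *Cxcl10* stood at 4.71 and 108 CPM, which was 5.81% of cluster 7, and 10 cells held 59.9% of its UMIs.

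Several of the genes with the largest ratios stood far higher in another cluster. *Il1b*, *Ccl3*, *Ccl4* and *Cxcl2*, products of activated macrophages, lay at 0.533%, 0.510%, 0.752% and 0.581% of their level in the macrophages of cluster 6. *Ccl3* stood at 109 CPM in LPS cells of cluster 5, 68.2 CPM in cluster 4 and 68.7 CPM in cluster 0, and *Ccl4* at 87.9, 40.9 and 41.7 CPM. After thinning, a *Ccl4* UMI was found in 13.5%, 11.8% and 11.7% of LPS cells of clusters 5, 4 and 0, and a *Ccl3* UMI in 18.1%, 20.1% and 18.4%. The part of macrophage RNA in these values was not tested. *Cxcl3* lay at 2.65% and *Cxcl1* at 14.98% of cluster 6, and a *Cxcl1* UMI was found in 92.9% of thinned LPS cells. *Csf3* (ENSRNOG00000008525), the granulocyte growth factor, stood at 3.06 and 274 CPM, 12.3% of cluster 6 and 5.38 times (4.85 to 5.99) cluster 4, with a UMI in 41.5% of thinned LPS cells against 10.3% in cluster 4 and 8.66% in cluster 0.

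Regulators of NF-κB and interferon-response genes were higher as groups. Of 14 measured NF-κB genes, 13 were past 2-fold higher and 0 lower, with a median log2 ratio of 2.15 against 1.74 in cluster 4, where 12 were higher. The inhibitor *Nfkbia* stood at 154 and 693 CPM, a ratio of 4.51, the ubiquitin ligase *Birc3* at 2.59 and 51.6 CPM, a ratio of 19.95, and *Tnip1* at 69.4 and 419 CPM, a ratio of 6.04. Of 13 interferon-response genes, 12 were past 2-fold higher and 0 lower, and 10 were higher in cluster 4. *Isg15*, a ubiquitin-like modifier, stood at 31.1 and 261 CPM, and *Gbp5*, a guanylate-binding protein, at 2.12 and 48.3 CPM. In both libraries *Isg15* was below cluster 4, at 0.513 and 0.567 of its level. The LPS level was 15.5% of that in cluster 7 for *Isg15*, 13.3% for *Mx2*, 10.4% for *Usp18* and 8.75% for *Ifit3*, and within cluster 5 *Isg15* stood at 553 CPM in the LPS cells of sub-cluster 0, described below, and at 130 to 361 CPM in the other sub-clusters.

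The LPS-sensing genes differed between members. The receptor *Tlr4* itself had 12 control and 11 LPS UMIs, and *Cd14*, its co-receptor, 56 and 55. The kinase *Ripk2*, at 8.71 and 84.2 CPM, and *Irak3*, a brake on the receptor's signal, at 9.41 and 26.1 CPM, were past 2-fold higher, as were *Irak2* and *Map3k8*, 4 of 10 measured genes with 0 lower. Of 4 measured cytokine and growth factor genes, *Csf1*, *Csf3* and *Il1b* were past 2-fold higher and *Il33*, an alarmin held in endothelial nuclei, was lower, at 63.8 CPM (56.4 to 71.8) and 16.0 CPM (12.6 to 20.2), 3.98-fold (3.06 to 5.22) against 2.47-fold in cluster 4.

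**Figure D3:**
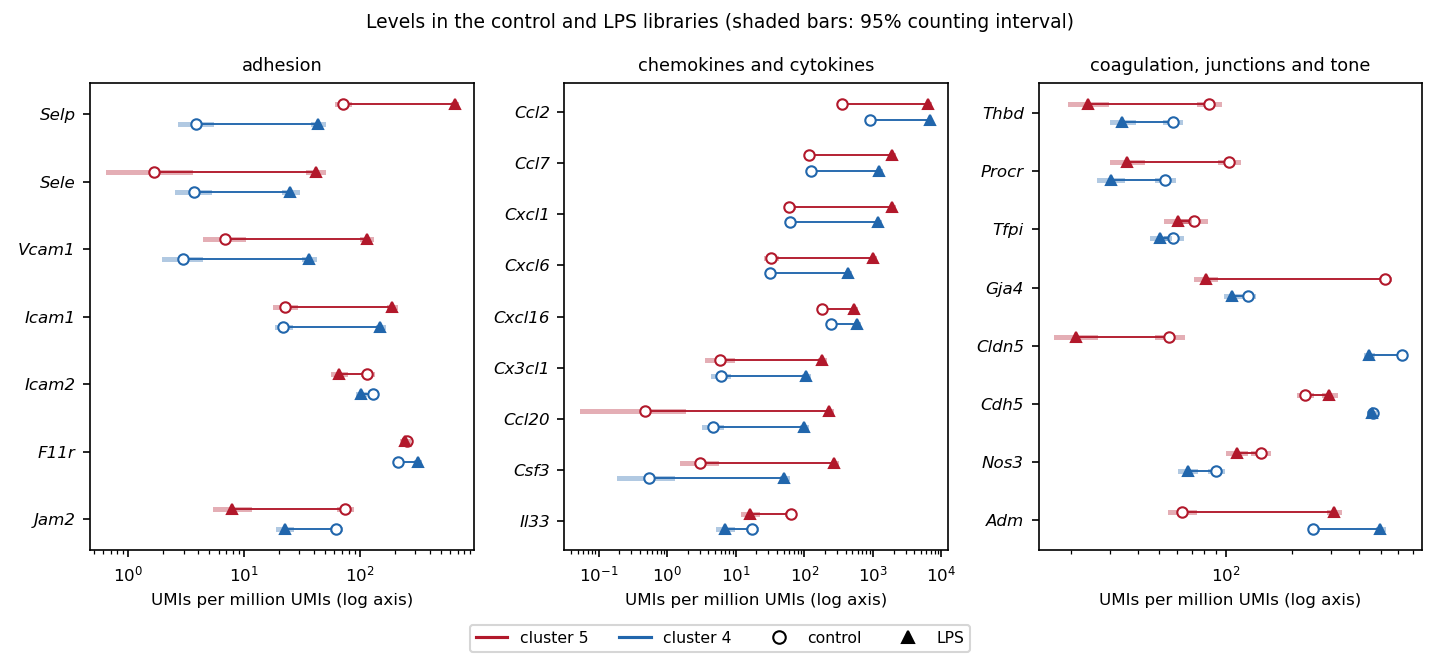
Levels of adhesion genes, chemokines and cytokines, and genes of coagulation, junctions and vessel tone (x axes, CPM on a log scale) in the control (open circles) and LPS libraries (filled triangles) of cluster 5 (red) and cluster 4 (blue), with 95% counting intervals shaded. *Selp* lies far to the right of cluster 4 in both libraries, and the triangles of *Gja4* and *Jam2* lie to the left of their circles.

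Clotting and vessel-tone genes differed in both directions. *Thbd*, the thrombin receptor thrombomodulin, stood at 84.0 and 24.0 CPM, 3.51-fold lower (2.82 to 4.39), and *Procr*, the endothelial protein C receptor, at 103 and 35.8 CPM, 2.88-fold lower (2.404 to 3.47). In cluster 4 these 2 anticoagulant receptors were 1.69-fold and 1.76-fold lower. Of the 8 measured coagulation genes, 5 were within 2-fold.

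The vasodilator peptide *Adm* stood at 63.5 CPM (56.2 to 71.6) and 310 CPM (294 to 326), 4.87-fold higher (4.28 to 5.57) against 2.01-fold in cluster 4, and *Ptgs2*, which makes prostaglandins, at 10.4 and 28.8 CPM. *Ptgs1*, its constitutive relative, stood at 34.6 and 15.6 CPM and was the 1 of 9 measured vasoactive genes past 2-fold lower. Endothelial nitric oxide synthase, *Nos3*, stood at 144 and 112 CPM. Genes of caveolae differed among themselves: *Nostrin* was 2.02-fold higher (1.63 to 2.50), *Cavin2* stood at 177 and 46.4 CPM and *Cavin3* at 206 and 88.1 CPM, and *Cav1* had a ratio of 1.32.

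Junction and transport genes were lower or within 2-fold. Of 10 measured junction genes, 0 were past 2-fold higher and 3 were lower (*Gja4*, *Cldn5* and *Cgnl1*), and 0 were past 2-fold in cluster 4. *Cdh5* had a ratio of 1.29. Of 5 fatty acid genes, 3 were lower and 0 higher, and of 6 capillary genes 3 were lower, among them the water channel *Aqp1* (ENSRNOG00000011648), at 102 CPM (93.0 to 112) and 17.4 CPM (13.7 to 21.6), 5.90-fold lower against 1.55-fold in cluster 4. *Aplnr* was 4.51-fold lower and 3.42-fold lower in cluster 4.

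The other genes with the lowest ratios were *Prr15*, *Lmcd1*, *Hs3st1*, *Lrrc17*, *Cyp4b1*, *Wnk4*, *Cyp1a1*, *Lrrc32* and *Cpz*. *Lrrc17* stood at 40.0 and 5.05 CPM, against 151 and 24.6 CPM in cluster 0. *Cpz* stood at 10.6 and 1.76 CPM, against 30.2 and 6.13 CPM. *Wnk4* stood at 12.2 and 1.54 CPM (0.618 to 3.17), against 5.40 and 2.59 CPM. *Prr15*, *Lmcd1*, *Hs3st1*, *Cyp4b1* and *Cyp1a1* were higher in cluster 5 than in cluster 0 in each library. The part of other cells' RNA in these values was not tested. *Prr15* stood at 53.9 and 3.30 CPM, 16.3-fold lower (9.71 to 29.7). *Hs3st1*, which adds the sulfate that gives heparan sulfate its antithrombin site, stood at 66.4 and 7.91 CPM, 8.39-fold lower (5.92 to 12.2), against 3.42-fold in cluster 4. *Lrrc32*, which anchors latent TGF-β at the surface, stood at 80.2 and 13.4 CPM, 5.99-fold lower (4.55 to 7.997). In cluster 0 *Lrrc32* stood at 50.7 and 22.3 CPM, and its LPS level in cluster 5 was 18.5% of that in cluster 2. *Cd83* and *Arl5c*, in turn, were among the 12 genes with the highest ratios, at 0.941 and 38.0 CPM and at 1.88 and 58.2 CPM.

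Genes of endothelial identity and signalling were then counted against the 8.60% of all genes past 2-fold in either direction. Of 17 measured endothelial transcription factors, 0 were past 2-fold between the libraries, a number too small to be told from that share, with a median log2 ratio of -0.01 beside -0.06 over all genes. *Erg* had a ratio of 0.870 and *Sox17* of 1.11. For 6 Notch genes and 10 basement membrane genes the count was also 0, which lists of this size cannot tell from that share either. Of 14 BMP and TGF-β genes, *Bmp2*, a secreted bone morphogenetic protein, was the 1 past 2-fold higher, at 8.94 CPM (6.33 to 12.3) and 123 CPM (113 to 134), a ratio of 13.8 (9.90 to 19.7) against 4.88 in cluster 4. *Tgfbr2* was the 1 lower, at 11.5 and 4.83 CPM. Of 14 VEGF and angiopoietin genes, *Nrp2* and *Vegfa* were past 2-fold higher and *Angpt2* and *Aplnr* lower. Of 9 measured immediate early genes, *Junb* and *Ier3* were higher and *Fos* lower, and of 9 feedback genes *Tnfaip6*, *Socs1* and *Socs2* were higher.

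The responses of clusters 5 and 4 were then set against each other. Of 7780 genes with at least 50 UMIs in each cluster, 110 (1.41%) had a response at least 2-fold higher in cluster 5 with a counting interval that excludes 0, and 80 (1.03%) a response at least 2-fold lower, 2.44% in all. Among the highest were *Ccl20*, *Ccl4*, *Rgs4*, *Rsad2* and *Ch25h*. *Ccl4* lay at 0.752% and *Ch25h* at 7.97% of cluster 6, and 10 cells held 60.5% of the *Ccl4* UMIs of the LPS cells. With each cell thinned to 3000 UMIs the log2 difference for *Ch25h* was 0.64 in place of 1.97, which is under 2-fold. *Rgs4* (ENSRNOG00000002773), which shortens signals of G protein-coupled receptors, stood at 38.1 CPM (32.5 to 44.5) and 168 CPM (156 to 180) in cluster 5, 4.41-fold higher (3.72 to 5.26), but had a ratio of 0.815 in cluster 4. Its level in LPS cells was 12.9 times that of cluster 4, and 33.9% of thinned LPS cells had a UMI against 1.88% in cluster 4 and 1.45% in cluster 0.

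The log2 difference of the responses was 4.21 (2.37 to 6.04) for *Ccl20*, whose control level rests on 2 UMIs. *Rsad2*, an antiviral enzyme, was 12.6-fold higher (7.44 to 22.9) in cluster 5 and 2.63-fold higher in cluster 4. Its LPS level, 44.4 CPM, was below the 101 CPM of cluster 4 and 30.1% of cluster 7, and the 10 cells with the most UMIs held 46.0% of the sum. At the lower end stood *Gja4*, with a difference of -2.45 (-2.65 to -2.26), and *Vsir*, *Rerg*, *Aqp1*, *Cdc42ep3* and *Unc13d*. *Cdc42ep3*, an effector of the GTPase CDC42 that shapes the actin skeleton, stood at 97.7 and 39.8 CPM, 2.46-fold lower (2.06 to 2.94), whereas its ratio in cluster 4 was 1.46.

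**Figure D4:**
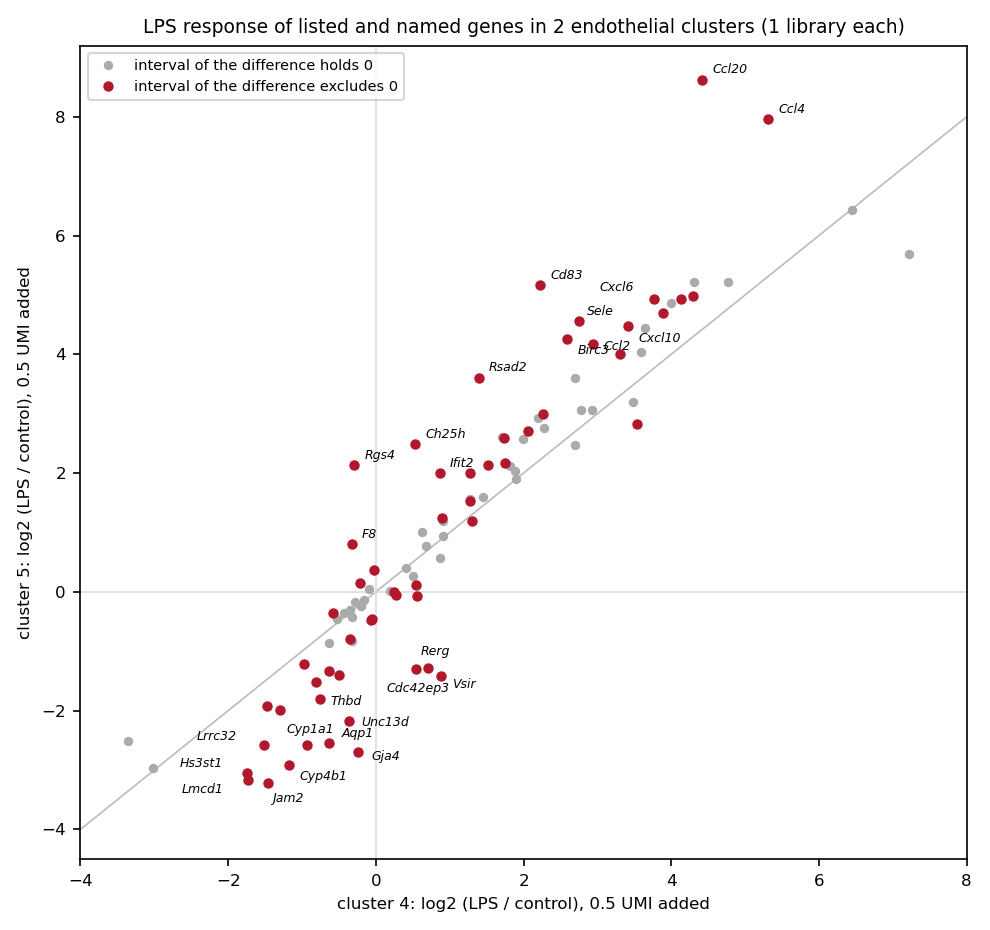
Log2 ratio of LPS to control (0.5 UMI added) in cluster 4 (x axis) and in cluster 5 (y axis) for the reported genes of 8 lists and the named genes, each point 1 gene with at least 50 UMIs in each cluster, red where the 95% counting interval of the difference excludes 0 and named where that difference is also at least 2-fold. *Ccl20* and *Rgs4* lie above the line of equal response, and *Gja4* (-2.69 in cluster 5) lies below it.

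Whether the markers lay in the same cells was asked by co-detection after thinning. In control cells, *Gja4* was found in 64.7% of the cells with a *Selp* UMI and in 62.4% of those without, and in 66.1% of the cells with a *Plvap* UMI and 55.6% of those without. *Gja4* was found in 59.5% of the cells with *Nr2f2* and 63.3% of those without. *Gja4* was thus found in most control cells that held a UMI of the venous-list genes *Selp* or *Nr2f2*. In LPS cells, *Ccl20* was found in 33.8% of the cells with *Selp* and 18.9% of those without, *Cx3cl1* in 39.4% and 30.6%, and *Sele* in 12% and 3.604%.

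Sub-clustering of the 793 cells, with values centred within each library, split them into 6 groups, called sub-clusters 0 to 5, with 188, 199, 94, 195, 24 and 93 cells in that order, and each held cells of both libraries. The leading genes of sub-cluster 0 were *Fabp4*, *Mx2*, *Ifit2*, *Cldn5* and *Isg15*, and its *Fabp4* level in control cells, 336 CPM, compares with 37.2 to 80.6 CPM in the other sub-clusters. In LPS cells its *Fabp4* level was 91.3 CPM, against 144 CPM in sub-cluster 4 and 30.6 to 39.5 CPM in the others. Sub-cluster 1 was led by *Tsc22d3*, *Bmp4* and *Spint2* and held a median of 5916 UMIs per cell, 6986 in control and 5295 in LPS cells. Sub-cluster 2 was led by *Slc7a11*, *Cdkn2a*, *Gdf15* and *Gtse1*. The cell cycle inhibitor *Cdkn2a* stood there at 508 CPM in control and 888 CPM in LPS cells, and *Cdkn1a*, a further inhibitor and target of p53, at 823 and 972 CPM, against at most 201 and 207 CPM elsewhere.

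Sub-cluster 3, with a median of 12242 UMIs per cell, was led by *Tmcc2* and *Spns2* (a sphingosine-1-phosphate exporter of endothelium), and sub-cluster 4, of 24 cells, by the mitotic genes *Kif20b*, *Pimreg* and *Cenpf*. Sub-cluster 5 stood apart: its fibroblast genes summed to 6578 CPM against 1574 to 1874 CPM in the others, its endothelial genes to 1470 CPM against 2712 to 3574 CPM, and its cells held a median of 18705 UMIs against 8303.5 in the rest. Its leading genes were *Id4*, *Ptx3*, *Sema3c*, *Has2* and *Twist2*. A doublet caller marked 3 control cells and 1 LPS cell of the whole libraries and so did not work here, and whether these 93 cells are doublets was not tested.

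The main contrasts were found in every sub-cluster. The ratio of *Selp* in LPS to control cells lay between 6.61 and 13.2 in the 6 sub-clusters and that of *Gja4* between 0.104 and 0.214. Levels differed more than ratios: *Selp* stood at 32.3 to 94.0 CPM in control and 384 to 839 CPM in LPS cells, and *Plvap* at 240 to 996 CPM in control cells, lowest in sub-cluster 5 and highest in sub-cluster 0. *Ccl20* in LPS cells ranged from 127 CPM in sub-cluster 2 to 366 CPM in sub-cluster 0. *Csf3* was highest in sub-cluster 2, at 691 CPM, against 121 to 355 CPM elsewhere. Without sub-cluster 5, the log2 ratio of *Gja4* was -2.72 in place of -2.69, and the log2 ratio of *Selp* to cluster 4 was 4.35 in control and 4.05 in LPS cells, in place of 4.20 and 3.91.

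**Figure D5:**
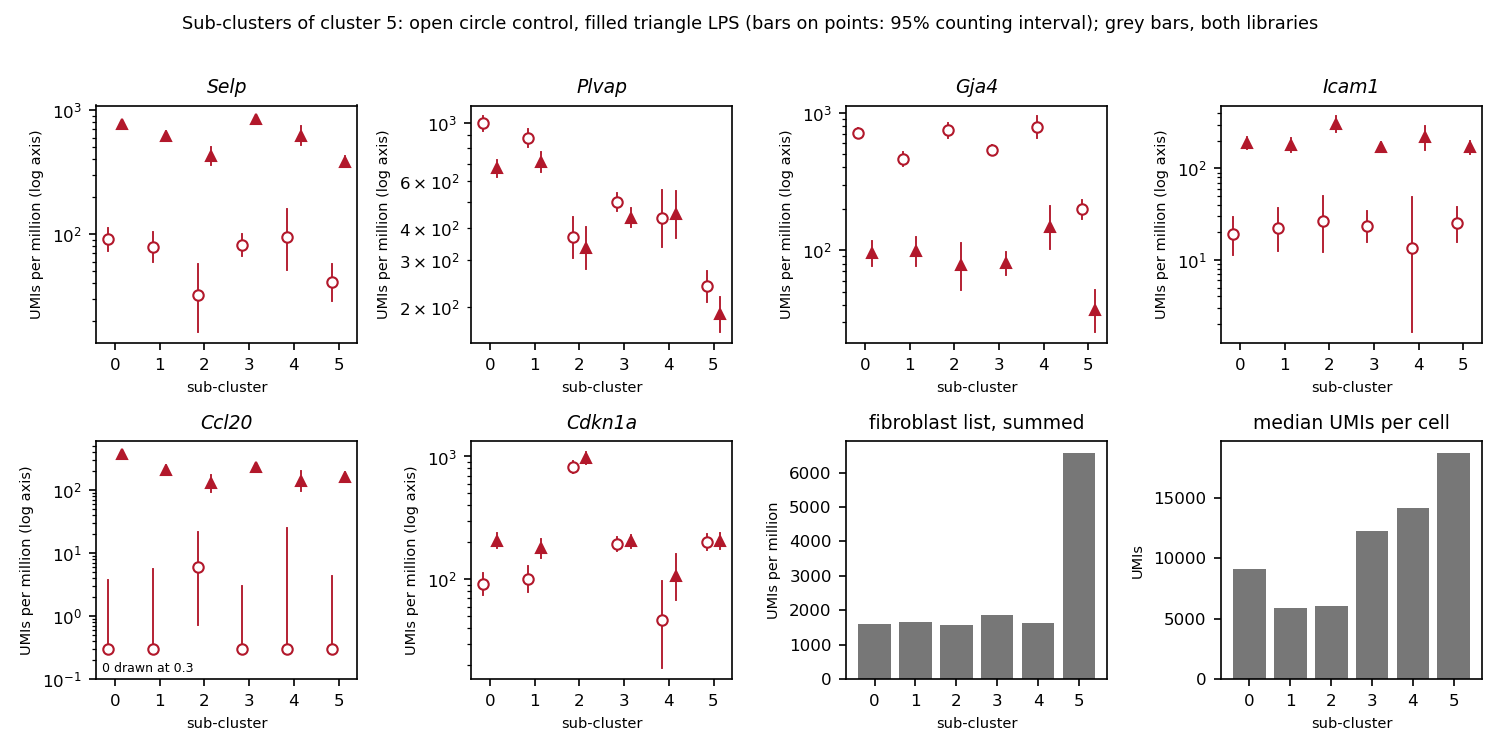
Levels of 6 genes (y axes, CPM on log scales) in the 6 sub-clusters of cluster 5 (x axes), with open circles for control, filled triangles for LPS and bars for the 95% counting interval; the grey bars give the summed fibroblast list and the median UMIs per cell over both libraries. *Selp*, *Icam1* and *Ccl20* lie higher and *Gja4* lower in the LPS cells of all 6, *Cdkn1a* stands out in sub-cluster 2 (823 and 972 CPM), and the fibroblast list in sub-cluster 5 (6578 CPM).

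Clusters 4 and 5 were also clustered anew without the LPS-response genes. The cells and counts were those behind the deposited clusters, so the outcome is a description and no independent check of their boundary. Of the cells of cluster 5, 92.6% of control and 92.8% of LPS cells fell into new clusters made mostly of cluster 5, which took in 7 control and 6 LPS cells of cluster 4. These new clusters made up 30.8% (28.1 to 33.7) of endothelial cells in control and 32.9% (30.4 to 35.6) in LPS.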

How the data were processed

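The libraries were made from Percoll-enriched neonatal rat cardiac cells after 2 h with LPS at 1 µg/mL or saline. The authors deposited raw, unnormalized UMI counts for 25399 genes in each cell, and a table of clusters, made per the study's methods with the Seurat functions RunCCA and FindClusters (resolution 0.5). The submitters' processing notes name Cell Ranger 2.2.0 and Seurat 2.3.4. The genome build and annotation are not given in the sources used here. The control library held 11531 cells, 152624585 UMIs and a median of 12479 UMIs per cell, and the LPS library 12689 cells, 127580475 UMIs and a median of 9432. The 2 control and 8 LPS cells without a cluster were left out, and no further filter on cells was applied.

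UMIs were summed per cluster and library and scaled to 1000000 UMIs per class (Python 3.11.15, numpy 2.4.6, pandas 2.3.3, scipy 1.17.1). Intervals at 95% are exact Poisson for levels, exact conditional for ratios, Clopper-Pearson for shares and Wald for differences of log2 ratios. Log2 ratios had 0.5 UMI added to each sum, and a ratio was counted from 2-fold for genes with at least 50 UMIs. A sum of 0 allows up to 3 UMIs. Genes were matched by the symbols of the gene list, and *Pecam1*, *Ackr1* and *Cd36* of the marker lists were not found under these symbols. Sub-clusters and new clusters were made in scanpy 1.11.5 (2000 variable genes, 20 components, 20 neighbours, Leiden at 0.5, seed 1), and TMM in edgeR 4.0.16 under R 4.3.3. The doublet caller was Scrublet with an expected 8%. The procedure was tested on simulated data.

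The members and the gene lists were chosen with earlier results of these data known. Beyond list members, the genes named are the 12 highest and 12 lowest LPS to control ratios among genes found in 10% or more of the cells in either library, the 12 highest and 12 lowest ratios to cluster 4 in both libraries among genes in at least 25% of the cells of the higher cluster, and the 6 responses furthest from cluster 4 on each side. Leading genes of sub-clusters and their levels were chosen after their values were seen. Some results that this rule names are not reported here.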

Additional observations from a re-analysis of the deposited data

Results flagged for a closer look

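Of 373 listed or named genes looked at, 9 differed between the libraries in opposite directions in clusters 5 and 4, with counting intervals that exclude 1 in each cluster. The difference itself was not tested. Under TMM scaling, an alternative chosen after seeing the data, 8 of the 9 still lay in opposite directions and 6 did so with both intervals excluding 1: *Col4a1* had ratios of 1.13 and 1.04, and the intervals of *Pgf* in cluster 5 (0.645 to 1.05) and of *Sox17* in cluster 4 (0.892 to 1.03) included 1. The log2 difference of the response, cluster 5 minus cluster 4, was -2.30 for *Vsir*, an immune checkpoint receptor, whose ratio of LPS to control was 0.370 in cluster 5 and 1.85 in cluster 4. It was -1.99 for *Rerg*, a Ras-like GTPase, with ratios of 0.406 and 1.64, and -1.02 with each cell thinned to 3000 UMIs. It was -1.84 for *Cdc42ep3*, with ratios of 0.407 and 1.46. For the serine protease *Prss23* it was -0.79 with ratios of 0.678 and 1.17, and for the placental growth factor *Pgf* -0.59 with ratios of 0.773 and 1.17. In the fibroblasts of cluster 0, *Vsir* stood at 18.5 and 6.90 CPM, against 12.5 and 4.61 CPM in cluster 5. *Rerg* stood at 19.6 and 10.9 CPM in cluster 0, against 10.8 and 4.39 CPM in cluster 5. *Cdc42ep3* and *Prss23* were higher in cluster 5 than in cluster 0 in each library. *Pgf* stood at 35.5 CPM (30.1 to 41.7) and 27.5 CPM (22.9 to 32.7) in cluster 5. In cluster 0 *Pgf* stood at 21.0 and 25.3 CPM, so the LPS interval of cluster 5 holds the level of cluster 0. The part of other cells' RNA in these values was not tested.

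The difference was positive for 4 genes. *Ube2c*, a mitotic ubiquitin-conjugating enzyme, had a difference of 1.06 with ratios of 1.42 and 0.680. In the mitotic sub-cluster 4, of 9 control and 15 LPS cells, *Ube2c* stood at 214 CPM, against 11.4 CPM in the other cells of cluster 5. The part of these few cells in the ratio was not tested, and the counting interval does not cover their number. *Cavin1*, a coat protein of caveolae, had a difference of 0.36 with ratios of 1.11 and 0.862, and *Sox17* of 0.32 with ratios of 1.11 and 0.893. *Col4a1*, a basement membrane collagen, had a difference of 0.13 with ratios of 1.06 and 0.972.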

How the results depend on the processing

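No paired analysis was possible because there was 1 library per condition. Apart from *Col4a1* in cluster 4, none of the recomputed log2 ratios of single genes changed sign under the alternatives run. The LPS to control ratio of *Col4a1* there was 0.972, and 1.04 under TMM scaling. The balance of genes past 2-fold between the libraries of cluster 5, 328 higher and 345 lower, turned under 3 of the alternatives. Under TMM scaling 386 were higher and 280 lower, and the median log2 ratio over all genes was 0.04 in place of -0.06. The counts also depended on the depth and the gene minimum: with each cell thinned to 3000 UMIs, 209 genes were higher and 157 lower in LPS cells of cluster 5, with a minimum of 20 UMIs 612 were lower, and with a minimum of 200 UMIs 177 were higher and 105 lower, and 152 were higher in cluster 5 than in cluster 4. Without the fibroblast-rich sub-cluster, an alternative chosen after seeing the data, the cluster was 2.68% of control and 3.10% of LPS cells, and the log2 ratio of LPS to control was 5.60 in place of 4.98 for *Cxcl1* and 5.84 in place of 4.93 for *Cxcl6*. The log2 ratios of the named genes were recomputed under each alternative, and every gene under every alternative was counted as a separate value. Of these values, 12 of 192 between libraries lay outside the counting interval of the main ratio. So did 37 of 192 between clusters in control, 25 of 192 in LPS cells and 5 of 96 differences of response. After thinning to 3000 UMIs the difference for *Ch25h* was 0.64 in place of 1.97 and for *Rerg* -1.02 in place of -1.99. With new clusters made without LPS-response genes, the control log2 ratio to cluster 4 was 3.38 in place of 4.20 for *Selp*, 3.57 in place of 4.20 for *Lbp* and 3.32 in place of 4.30 for *Susd4*. With thinning to 1500 UMIs, a *Selp* UMI was found in 11.4% of control and 56.0% of LPS cells and a *Gja4* UMI in 49.4% and 11.1%. The number of sub-clusters was 5 to 7. Counting intervals do not cover differences between animals or preparations.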

Other observations

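Some further genes also differed between the libraries. Those below were chosen after their values were seen. The LPS to control ratio of *Lyve1* was 3.39 (3.07 to 3.75) in cluster 5 and 2.17 (2.05 to 2.29) in cluster 4, and a *Lyve1* UMI was found in 28.3% of control and 51.4% of LPS cells of cluster 5 after thinning. *Nrp2*, a receptor for semaphorins and VEGF-C, had a ratio of 2.02 (1.66 to 2.47) in cluster 5 and 1.31 (1.20 to 1.44) in cluster 4. *Art4*, which carries the Dombrock blood group, had a ratio of 4.26 (3.46 to 5.28) in cluster 5 and 2.96 (1.95 to 4.61) in cluster 4, intervals that overlap. Complement *C3* had a ratio of 2.37 (1.80 to 3.13) in cluster 5, *Slpi* of 1.20 (1.15 to 1.25) and *Lbp* of 1.11 (1.01 to 1.21). In cluster 4 the ratios were 2.89 (1.67 to 5.20) for *C3*, 1.68 (1.55 to 1.82) for *Slpi* and 1.43 (1.12 to 1.83) for *Lbp*. *Cyp1a1*, a target of the aryl hydrocarbon receptor, stood at 26.8 CPM in control and 4.395 CPM in LPS cells of cluster 5, and at 92.6 and 48.6 CPM in cluster 4.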
